A study of Homo sapiens with 2 samples.

Results

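The genes described here are the zinc finger genes of human chromosome 19 whose symbols begin with ZNF and a number. They were taken from the array's transcript clusters, the probe groups by which it reads a gene, whose identifier places them on chromosome 19. Genes were kept where the mean of both arrays was at or above 6.05 on the log2 signal scale. Of 220 such genes on the array, 146 met this level, out of 9735 genes of any kind that did and 14526 named genes in all. All 146 lay on chromosome 19 in the RefSeq gene table too. The rule used the level and the name, not the difference between the arrays. RNA came from NUGC4, a human gastric cancer cell line. One culture was given a negative control siRNA. The other was given Stealth siRNA HSS137119, which targets ANO5 (anoctamin 5). The final siRNA concentration in both was 20 nmol/l, and transfection followed seeding by 24 h. Each group was 1 array of bulk RNA from 1 cell line and 1 siRNA sequence, so no replicate spread, standard error or p-value exists, and every difference below compares these 2 RNA samples. In bulk RNA, fewer cells with a transcript and less of it per cell cannot be told apart.

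Most ZNF proteins of chromosome 19 carry tandem zinc fingers that read DNA and a KRAB box at the amino end. The KRAB box binds TRIM28, which brings the methyltransferase SETDB1, heterochromatin proteins and histone deacetylases to the bound site, and transposable elements are among the best known targets. The genes lie in arrays along the chromosome that grew by repeated tandem duplication, so that neighbours are often close relatives. Probes may share signal between near-identical copies, such as ZNF587 and ZNF587B or ZNF585A and ZNF585B. ZNF816, ZNF321P and their readthrough transcript ZNF816-ZNF321P overlap. Single members of such sets are uncertain.

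ANO5 itself read 6.83 in the control and 3.67 after its siRNA, the only check of the knockdown in these data. The epithelial markers EPCAM, KRT8, KRT18, KRT19 and CDH1 were all high, between 14.6 and 17.37 on either array. The fibroblast marker COL1A1 and the blood cell marker PTPRC read 4.58 and 3.68 in the control, while COL1A2 read 8.03 and CD68 7.66. VIM was not analysed here. Differences are given throughout as ANO5 siRNA minus control siRNA in log2 signal, and a gene is called higher or lower where it differed by at least 1.5-fold.

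More ZNF genes of chromosome 19 were lower than higher after ANO5 siRNA, and most lay within 1.5-fold. Of 146 genes 58 were lower by at least 1.5-fold, which is 39.7% beside 20.1% of all measured genes. Only 5 were higher, 3.42% beside 23.2%. At 2-fold, 31 were lower (21.2% beside 11.3%) and 1 was higher (0.685% beside 11.2%). The differences ran from -2.11 to 1.33 with a median of -0.35 and an SD over genes of 0.66, while the median of all measured genes was 0.07. By sign alone 108 members were below 0 and 37 above. At 3-fold 10 were lower (6.85% beside 5.36%) and 0 higher (0% beside 3.52%). The differences were thus spread over many genes: the interquartile range was -0.91 to 0.02, and 83 members lay within 1.5-fold.

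**Figure D1:**
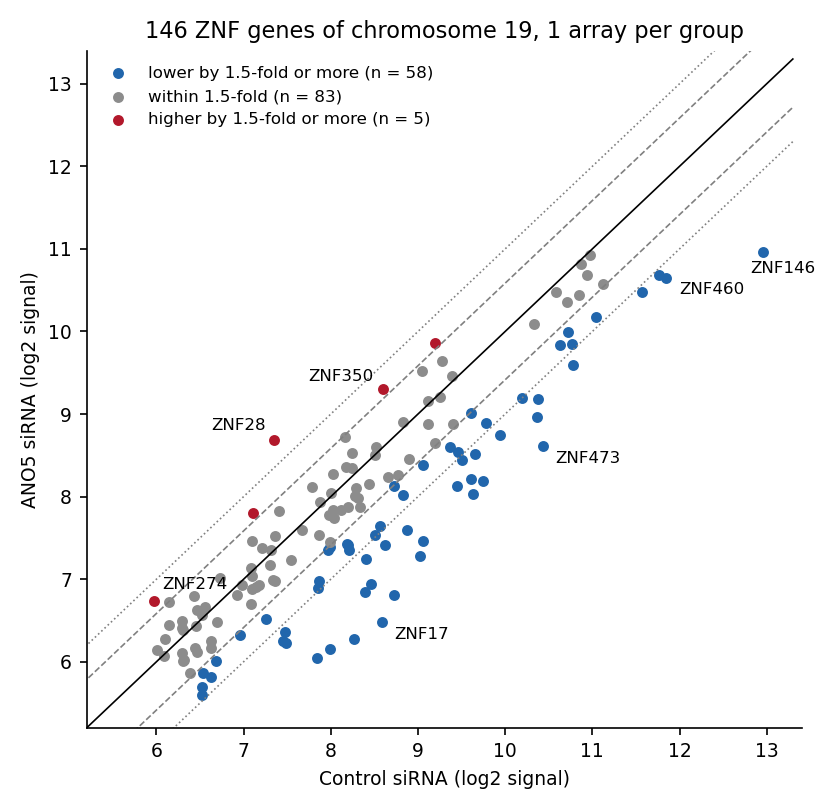
Log2 signal of the 146 ZNF genes in the control (x axis) and ANO5 siRNA (y axis) arrays, 1 point per gene. The solid line marks equal values, dashed lines 1.5-fold and dotted lines 2-fold; 58 points lie at or below the lower dashed line and 5 at or above the upper one.

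ZNF genes elsewhere in the genome and the other genes of chromosome 19 showed smaller shares of lower genes. Of 148 ZNF genes outside chromosome 19, chosen by the same name and level, 37 were lower (25%) and 18 higher (12.2%), with a median of -0.12. Of 529 measured chromosome 19 genes with other names, 85 were lower (16.1%) and 120 higher (22.7%), with a median of 0.07. These sets were compared by description only, since genes of 1 pair of arrays are not replicates.

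**Figure D2:**
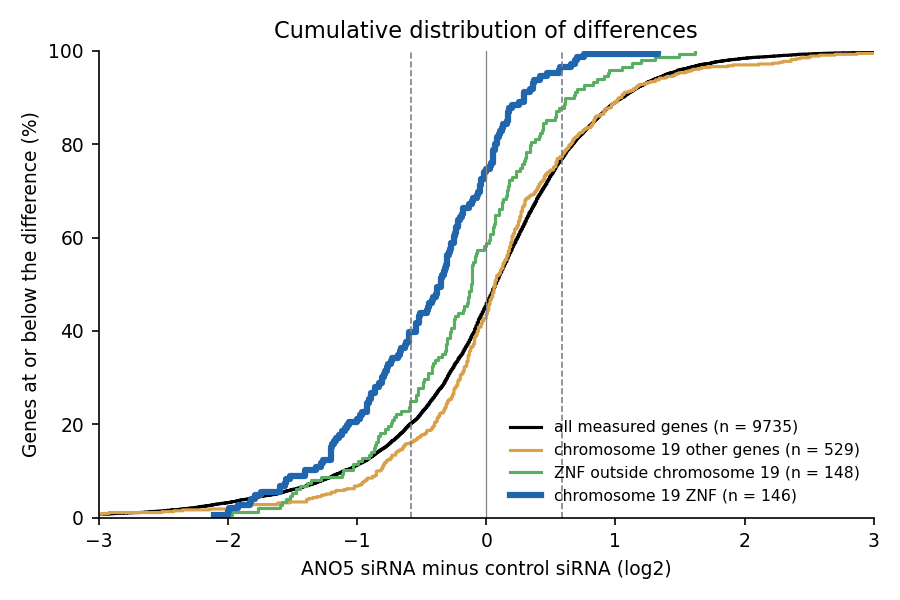
Percentage of genes (y axis) at or below each log2 difference (x axis), for the 146 chromosome 19 ZNF genes, 148 ZNF genes elsewhere, 529 other chromosome 19 genes and all 9735 measured genes. Dashed lines mark 1.5-fold. The curve of the chromosome 19 ZNF genes already lies left of the others at 2-fold lower (21.2% beside 11.3% of all measured genes), and does so at both dashed lines.

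The members' median signal was 7.92, beside 9.66 for all measured genes. Signals of different probe groups are no measure of relative expression, so levels here only sort genes into ranges of signal, and the share of lower genes was also read within ranges of level. Among members with a mean below 7, 11 of 39 were lower (28.2%), beside 17.4% of all measured genes of that range. Between 7 and 8 it was 14 of 37 (37.8% beside 20.2%), and between 8 and 9 it was 15 of 37 (40.5% beside 22.3%). At 9 and above it was 18 of 33 (54.5% beside 20.2%), with a median of -0.73. In all 4 ranges the members' share exceeded that of all measured genes of like level. The share of lower members was larger in each higher range of signal. ZNF genes outside chromosome 19 gave 32.3%, 20.5%, 10.3% and 32.7% in the same ranges, so in the lowest range their share was the larger.

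The member with the highest signal was ZNF146, which encodes a protein made of zinc fingers alone, without a KRAB box. It read 12.96 in the control and 10.96 after ANO5 siRNA, a 4-fold difference. ZNF460 (11.85 and 10.65), ZNF121 (11.77 and 10.69) and ZNF480 (11.57 and 10.48) followed in signal and were 2.30-fold, 2.11-fold and 2.13-fold lower. The other 6 of the 10 highest did not move as one. ZNF776 was 1.82-fold lower (11.04 and 10.18), whereas ZNF254 differed by -0.54, ZNF585B by -0.41 and ZNF134 by -0.25. ZNF584 (10.97 and 10.93) and ZNF675 (10.87 and 10.82), the latter known as an inhibitor of TRAF6 signalling, were nearly equal on both arrays.

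The members were next read by their place along the chromosome, where stretches differed widely. ZNF genes were joined into neighbour groups where at most 5 other protein-coding genes lay between them in the RefSeq order, and 7 groups held at least 5 members each, 126 in all. The groups are named by their first and last ZNF gene. Their medians ran from -1.09 in the group from ZNF264 to ZNF446, the last along the chromosome, to 0.08 in that from ZNF283 to ZNF180. The ZNF317 to ZNF846 group had a median of -0.91, ZNF653 to ZNF791 of -0.66 and ZNF101 to ZNF254 of -0.57. ZNF565 to ZNF573 had a median of -0.30 and ZNF577 to ZNF331 of -0.19. The 20 members outside these groups had a median of -0.25, with 5 lower and 0 higher.

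**Figure D3:**
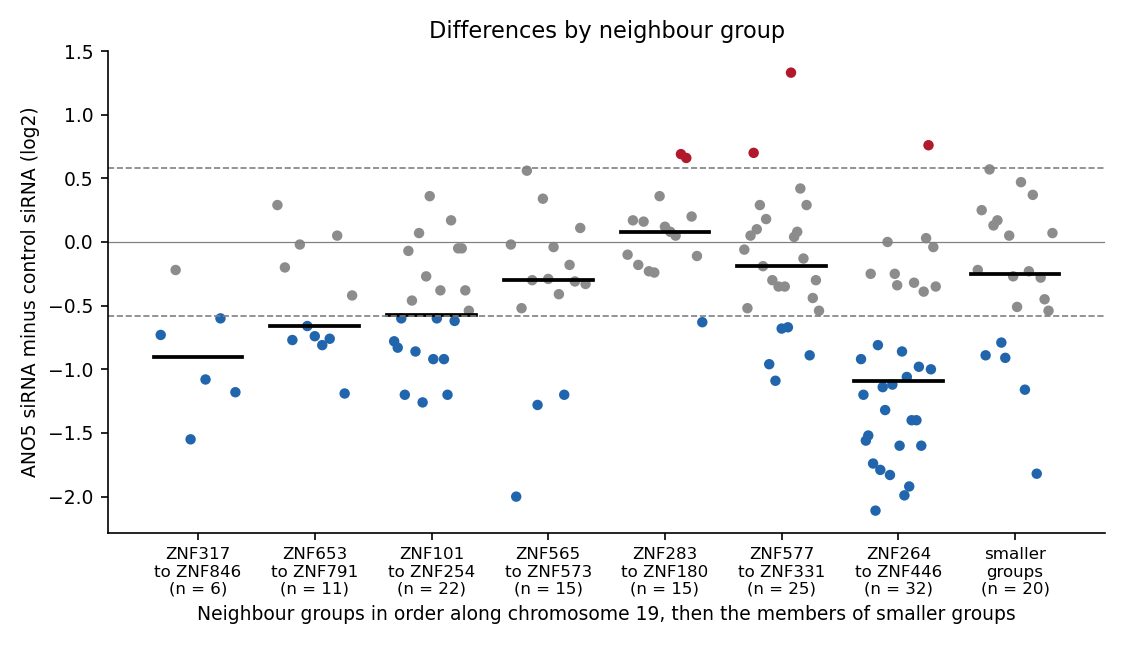
Log2 difference (y axis) of each member by neighbour group (x axis, in order along chromosome 19, with the 20 members of smaller groups last). Points are genes in chromosomal order, black bars are medians and dashed lines mark 1.5-fold; the ZNF264 to ZNF446 group has a median of -1.09 and the ZNF283 to ZNF180 group one of 0.08.

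The ZNF264 to ZNF446 group held 50 ZNF genes in RefSeq, of which 39 were in the table and 32 were members. Of these, 22 were lower (68.8%), 1 was higher and 9 lay within 1.5-fold. At 2-fold 18 were lower, which is 58.1% of the 31 members lower by that much, while the group made up 21.9% of all members. It also held 13 of the 20 members with the lowest differences. Without this group, 36 of the other 114 members were lower (31.6%) and 4 higher, with a median of -0.29. The group thus held a large part of the lower genes, and the other members still had a larger share of lower genes than all measured genes.

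ZNF17 had the lowest difference of all members, reading 8.59 in the control and 6.48 after ANO5 siRNA (4.32-fold lower). ZNF586 was 3.97-fold lower (8.27 and 6.28). ZNF587B was 3.78-fold lower (8.73 and 6.81). Of its near relatives, ZNF587 read 9.61 and 8.21 and ZNF417 read 10.37 and 8.97, each 2.64-fold lower. Both encode repressors that bind endogenous retroviruses of the HERV-K family. ZNF416 was 3.56-fold lower (7.99 and 6.16) and ZNF772 3.46-fold lower (7.84 and 6.05). ZNF548 was 3.34-fold lower (9.02 and 7.28), and ZNF256 (9.63 and 8.03) and ZNF551 (9.06 and 7.46) each 3.03-fold lower. These genes were named for their low differences, and their control levels ran from under 8 to above 10. ZNF543 was 2.95-fold lower, ZNF304, a repressor that recruits silencing factors to promoters, 2.87-fold (8.46 and 6.94) and ZNF773 2.50-fold. ZNF419, which gives rise to a minor histocompatibility antigen, was 2.20-fold lower (9.66 and 8.52), ZNF8 2-fold (10.19 and 9.19) and ZNF264 1.89-fold (10.77 and 9.85).

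The same stretch held exceptions between lower neighbours. ZNF550 read 8.51 on both arrays and lies between ZNF773 and ZNF416, which differed by -1.32 and -1.83. ZNF134 (10.94 and 10.69) and ZNF211 (7.87 and 7.53) stood side by side at -0.25 and -0.34. ZNF814, between ZNF587 and ZNF417, read 8.20 and 7.88. Toward the end of the group ZNF606 differed by -0.39, ZNF329 by 0.03, ZNF584 by -0.04 and ZNF324B by -0.35. ZNF274 was the only member of the group called higher, at 5.97 in the control and 6.73 after ANO5 siRNA (1.69-fold). Its protein binds the coding ends of other ZNF genes and brings SETDB1 there. Both of its values were low, and the control value lay below 6.05, so that its place among the members rested on the ANO5 siRNA array.

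**Figure D4:**
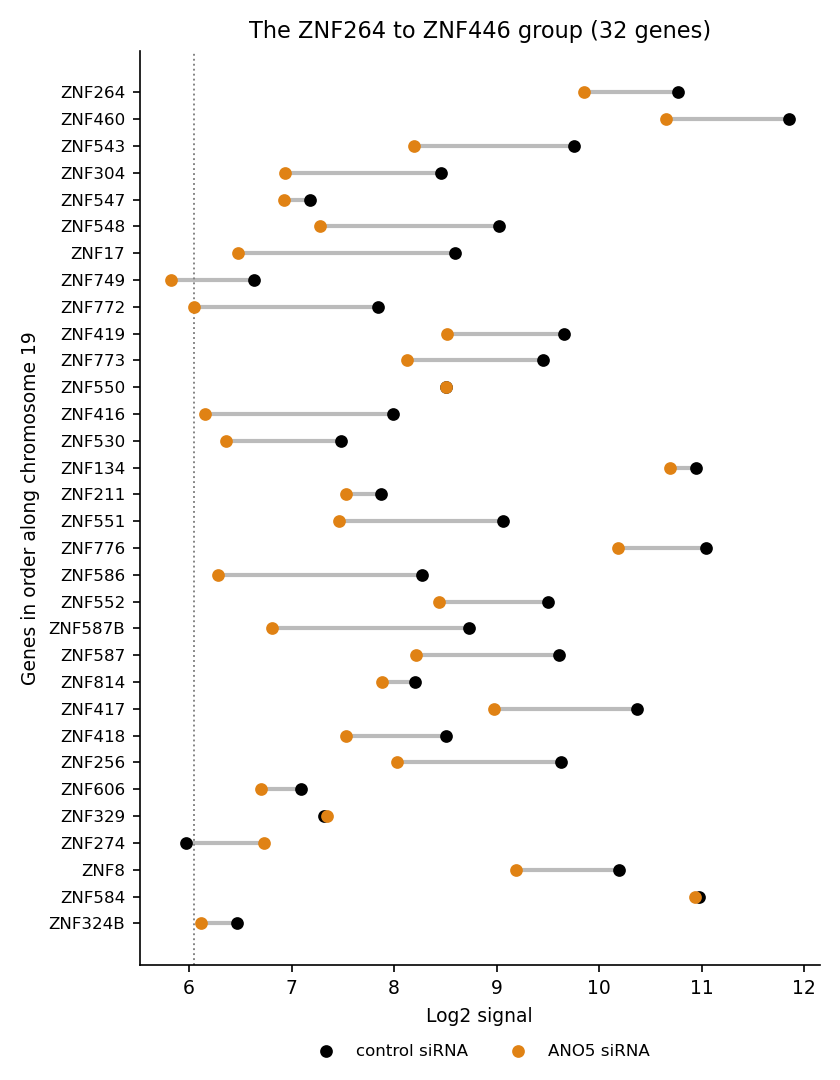
Log2 signal (x axis) of the 32 members of the ZNF264 to ZNF446 group in chromosomal order (y axis), with control siRNA in black and ANO5 siRNA in orange. The dotted line marks the level of 6.05; in 29 genes the orange point lies left of the black one, in ZNF550 they coincide, and in ZNF329 and ZNF274 the orange point lies to the right.

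The other named genes of this stretch were at low levels on both arrays. Of genes in the table, AURKC, VN1R1, C19orf18, ZSCAN18 and RNF225 lie between ZNF264 and ZNF446, and 0 of these 5 reached a mean of 6.05. Their differences were 0.01, 0.19, 0.46, 0.22 and 0.09. The table thus holds no measured gene of another name inside the group with which its ZNF genes could be compared. TRIM28, the corepressor that KRAB boxes bind, lies a few genes beyond the group and read 13.52 in the control and 12.59 after ANO5 siRNA.

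Because members of this group were lower together, their promoters were compared. RefSeq promoter windows (GRCh38.p14, 250 bases before to 50 after the first listed start of a gene) were found for 125 of 146 members, 29 of them in the ZNF264 to ZNF446 group. The 250 bases before the start are shown for 4 of the steepest lower genes of the group, ZNF17 at chr19:57410911-57411160 (plus strand), ZNF586 at chr19:57769426-57769675 (plus strand), ZNF587B at chr19:57830049-57830298 (plus strand) and ZNF772 at chr19:57477567-57477816 (minus strand). Each is read 5′ to 3′ on the strand of the gene. Capitals mark ACTACANNNCCC on either strand, a pattern chosen after these sequences had been read, where N is any base.
ZNF17: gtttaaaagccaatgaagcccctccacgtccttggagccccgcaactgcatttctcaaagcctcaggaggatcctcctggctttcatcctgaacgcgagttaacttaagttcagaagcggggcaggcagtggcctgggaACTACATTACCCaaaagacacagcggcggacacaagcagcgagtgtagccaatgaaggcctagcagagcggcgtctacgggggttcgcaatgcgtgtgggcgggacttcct
ZNF586: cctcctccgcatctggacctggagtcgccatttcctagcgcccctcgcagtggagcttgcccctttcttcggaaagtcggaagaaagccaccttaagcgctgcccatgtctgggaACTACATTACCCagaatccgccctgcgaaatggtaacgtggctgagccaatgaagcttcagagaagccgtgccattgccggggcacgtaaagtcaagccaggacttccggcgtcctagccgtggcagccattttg
ZNF587B: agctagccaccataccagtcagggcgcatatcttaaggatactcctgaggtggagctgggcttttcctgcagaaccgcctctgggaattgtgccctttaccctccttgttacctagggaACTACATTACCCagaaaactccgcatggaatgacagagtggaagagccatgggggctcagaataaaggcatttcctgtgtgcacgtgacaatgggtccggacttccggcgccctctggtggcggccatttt
ZNF772: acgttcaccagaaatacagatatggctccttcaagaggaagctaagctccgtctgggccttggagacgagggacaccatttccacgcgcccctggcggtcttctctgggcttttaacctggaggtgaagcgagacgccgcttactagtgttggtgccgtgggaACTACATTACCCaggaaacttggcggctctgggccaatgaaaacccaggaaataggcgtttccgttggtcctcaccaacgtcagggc

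In all 4 the capitals read ACTACATTACCC, and the match began 111, 135, 131 and 87 bases before the start in the order shown. This exact 12-base run was present in 10 of the 29 promoters of the group (34.5%). It was in 0 of 96 promoters of other members and in 14 of 27305 promoters, 1 per gene, of the whole table (0.0513%). Of the 4 outside the members, only MAP2K6, a kinase of the p38 pathway on chromosome 17, was a measured gene, at a difference of 0.07. The 10 members were ZNF17, ZNF586, ZNF587B, ZNF416, ZNF772, ZNF587, ZNF530, ZNF418, ZNF749 and ZNF814. Of these, 9 were lower by at least 1.5-fold and ZNF814 was at -0.32, and their median was -1.60. Among the 10 lowest members with a promoter, 5 held it, and 4 other 12-base runs were shared by as many. Of those 4 runs, 3 overlap it by all but a few bases. The other, GGCGGGACTTCC, was in 11 members, all of the same group, and in 90 of 27305 promoters (0.330%). Of these 11 genes 8 were lower, with a median of -1.32, and ZNF547, ZNF134 and ZNF550 lay between -0.25 and 0. The run in capitals was picked from the steepest lower genes, so these counts describe them and are no evidence of a link, and duplicated neighbours share sequence by descent.

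The looser pattern ACTACANNNCCC, which frees bases 7 to 9 of the run, was commoner. It was in 16 of 29 promoters of the group (55.2%), in 16 of 96 of the other members (16.7%), in 5.00% of measured genes and in 2.36% of all promoters. Within the group the 10 genes with the exact run were set aside, since the pattern was drawn from that run in 5 of them. Of the 6 with the looser pattern alone 4 were lower (median -0.93), beside 7 of 13 without it (median -0.92). Among the other members, 4 of 16 with it were lower (median -0.17), beside 26 of 80 without it (median -0.33). In the ZNF283 to ZNF180 group, part of these other members, 8 of 11 promoters held it (72.7%). Only ZNF112 of those 8 was lower, beside 0 of 3 without it. Outside both groups 3 of 8 members with it were lower (37.5%), beside 26 of 77 without it (33.8%). Of 375 measured genes that are not members and hold it, 81 were lower (21.6%), beside 19.8% of those without it. Among ZNF genes outside chromosome 19 it was in 15 of 130 promoters, and 6 of those 15 were lower (40.0%) beside 25.2% without it. Of 21 other chromosome 19 genes with it 5 were lower (23.8%), beside 16.4% of those without it. The share of lower genes was thus larger with the looser pattern in each of these sets but the other members pooled. That pool joins the ZNF283 to ZNF180 group, where few genes were lower, with the rest. Medians were not always lower with it (-0.31 beside -0.35 outside both groups), several sets were small, and none of these differences was tested.

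**Figure D5:**
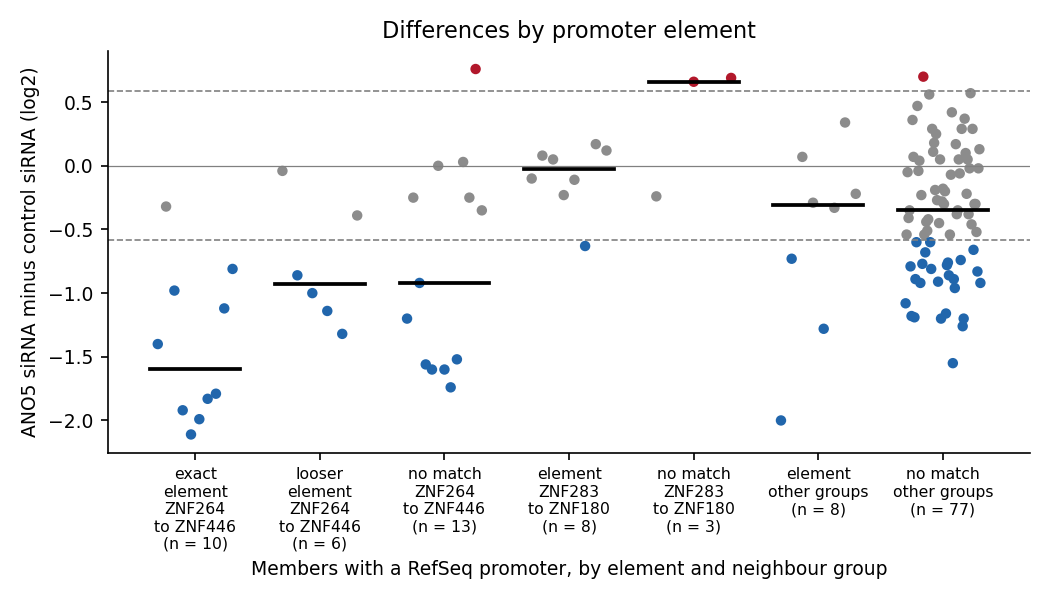
Log2 difference (y axis) of the 125 members with a RefSeq promoter, split by neighbour group and by whether the promoter holds the exact 12-base run, the looser pattern or no match (x axis). Black bars are medians and dashed lines mark 1.5-fold; the 10 genes with the exact run have a median of -1.60 and the 8 with the pattern in the ZNF283 to ZNF180 group one of -0.03.

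For contrast, ZNF146 lies in another group and was as strongly lower, and ZNF350 and ZNF274 were higher. Their windows are ZNF146 at chr19:36214856-36215105 (plus strand), ZNF350 at chr19:51986841-51987090 (minus strand) and ZNF274 at chr19:58182811-58183060 (plus strand), with capitals as above.
ZNF146: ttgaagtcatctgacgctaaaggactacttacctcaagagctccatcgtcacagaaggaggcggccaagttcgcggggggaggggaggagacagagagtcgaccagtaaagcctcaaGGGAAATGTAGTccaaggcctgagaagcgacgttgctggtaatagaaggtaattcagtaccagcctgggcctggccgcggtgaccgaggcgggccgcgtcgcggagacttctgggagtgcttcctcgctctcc
ZNF350: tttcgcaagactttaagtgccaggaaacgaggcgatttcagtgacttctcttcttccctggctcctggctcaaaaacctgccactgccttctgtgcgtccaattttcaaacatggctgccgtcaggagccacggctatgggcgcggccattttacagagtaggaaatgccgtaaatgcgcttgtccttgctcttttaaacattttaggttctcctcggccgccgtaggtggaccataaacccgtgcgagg
ZNF274: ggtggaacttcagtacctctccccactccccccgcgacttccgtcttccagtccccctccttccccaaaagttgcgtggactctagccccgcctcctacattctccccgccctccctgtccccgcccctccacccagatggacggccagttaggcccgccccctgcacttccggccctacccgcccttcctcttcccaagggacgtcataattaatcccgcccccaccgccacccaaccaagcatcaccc

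ZNF146 holds the looser pattern on the opposite strand, and the 2 higher genes hold no match in this window. Other short motifs were searched on both strands of the whole 300-base window. CCGGAA, the core bound by ETS factors, was in 62.4% of member promoters, beside 31.9% of measured genes and 17.6% of all promoters. It was in 56.0% of the promoters of lower members and in 66.2% of those within 1.5-fold. CCAAT was in 66.0% of lower members, 47.9% of those within 1.5-fold and 37.5% of measured genes. GGGCGG, the core bound by SP factors, was in 62.4% of members and 70.6% of measured genes. CCATNTT, the core bound by YY factors, was in 24.8% of members and 16.7% of measured genes. TATAAA was in 3.20% and 5.73%, TGACGTCA in 4.80% and 3.36%, and the palindrome bound by NRF1 in 1.60% and 2.47%. TGACGTCA was in 5 of 50 lower members (10.0%) and in 1 of 71 within 1.5-fold (1.41%), which are small counts. The median promoter of a member held 20.0 CpG sites, that of a lower member 18, and that of a measured gene 26. Such matches describe the letters of these windows and not binding.

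The ZNF283 to ZNF180 group was the counterpart of the last group. Of its 15 members 1 was lower and 2 were higher, and the SD over genes was 0.34, the smallest of the 7 groups. ZNF226 (7.11 and 7.80) and ZNF227 (9.20 and 9.86) were 1.61-fold and 1.58-fold higher. Both are neighbours in a run of KRAB genes that also holds ZNF224, a repressor of the aldolase A gene, at 8.52 and 8.60, and ZNF234 at 7.88 and 7.93. ZNF112 was the only lower member, at 6.96 and 6.33. The remaining 10 members, from ZNF222 (10.33 and 10.09) to ZNF223 (7.10 and 7.46), lay between -0.24 and 0.36. Most genes of this stretch thus read nearly alike on both arrays.

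Of the 25 members of the ZNF577 to ZNF331 group 5 were lower (20.0%, near the 20.1% of all measured genes) and 2 were higher (8% beside 23.2%). ZNF28 had the highest difference of all members and was the only one 2-fold higher, at 7.35 in the control and 8.68 after ANO5 siRNA (2.51-fold). ZNF350, a protein that binds BRCA1, was 1.62-fold higher (8.60 and 9.30). The lower members were ZNF480, ZNF616 (7.85 and 6.89), ZNF160 (7.87 and 6.98), ZNF808 (9.06 and 8.38) and ZNF600 (6.68 and 6.01). ZNF600 and ZNF28 are neighbours among the members, and they differed in opposite directions. ZNF611 read 10.71 and 10.36. Above 0 but within 1.5-fold were ZNF816-ZNF321P (7.41 and 7.83), ZNF816 (6.73 and 7.02) and ZNF614 (8.24 and 8.53), among others. PPP2R1A, a phosphatase subunit and the only measured gene of another name in this group, differed by 0.69.

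In the 3 groups of the short arm no member was called higher, beside 3.42% of all members and 23.2% of all measured genes. All 6 members of the ZNF317 to ZNF846 group were below 0 and 5 were lower (83.3%, beside 20.1% of all measured genes). ZNF266 was 2.93-fold lower (8.39 and 6.84), ZNF562 2.27-fold (10.78 and 9.60) and ZNF121 2.11-fold. ZNF317 read 10.72 and 9.99, and ZNF699 differed by -0.22. In the ZNF653 to ZNF791 group 6 of 11 were lower (54.5%), with ZNF490 lowest at 9.94 and 8.75 and ZNF653 highest at 6.15 and 6.44. The measured genes of other names in that group were ELOF1, also lower at 10.45 and 9.64, and ECSIT at 9.40 and 9.56. In the ZNF101 to ZNF254 group 11 of 22 were lower. ZNF714 (7.49 and 6.23), ZNF253 (10.38 and 9.18) and ZNF257 (7.45 and 6.25) were 2.39-fold, 2.30-fold and 2.30-fold lower. ZNF208 read 9.46 and 8.54 and ZNF43 read 6.63 and 6.25. ZNF708 was the highest there, at 9.28 and 9.64. ZNF91 and ZNF93, repressors of SVA and LINE elements from the same stretch, were below the level of 6.05, at 5.66 and 5.08 and at 5.65 and 5.73.

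The ZNF565 to ZNF573 group had 3 lower members of 15 (20.0%, near the 20.1% of all measured genes). All 3 were lower by over 2-fold, and the other 12 lay within 1.5-fold. They were ZNF146, ZNF850 (8.88 and 7.60, 2.43-fold) and ZNF383 (8.62 and 7.42, 2.30-fold). ZNF461 was the highest, at 8.16 and 8.72, and ZNF790 read 7.78 and 8.12. ZNF146 and ZNF565 are read away from each other from promoter windows that overlap on opposite strands, and ZNF565 read 6.45 and 6.43 while ZNF146 was 4-fold lower. Of members with overlapping opposite windows there were 3 pairs in all. ZNF567 and ZNF461 differed by -0.30 and 0.56, and ZNF791 and ZNF490 by -0.42 and -1.19. In none of the 3 pairs did both genes pass 1.5-fold, but 83 of all 146 members lay within 1.5-fold. So few pairs give no share to compare with that.

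Among members outside the larger groups, ZNF473 was the lowest. It encodes a factor of histone pre-mRNA end processing and read 10.43 in the control and 8.61 after ANO5 siRNA (3.53-fold lower). ZNF574 read 8.40 and 7.24, ZNF57 read 9.78 and 8.89, ZNF302 read 8.56 and 7.65 and ZNF507 read 10.63 and 9.84, all lower. Of the 8 of these members above 0, all within 1.5-fold, the farthest were ZNF557 (6.15 and 6.72), ZNF780A (9.05 and 9.52) and ZNF576 (6.43 and 6.80). ZNF444, which carries a SCAN domain in place of a KRAB box, read 8.83 and 8.90.

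The level threshold left out 74 ZNF genes of chromosome 19. Just inside it were ZNF429 (mean 6.06, difference -0.92), ZNF414 (0.13), ZNF700 (-0.02) and ZNF14 (mean 6.11, difference -0.83). Just outside were ZNF77 (mean 5.99, difference -0.42), ZNF492 (-0.37), ZNF114 (0.39) and ZNF296 (mean 5.95, difference 0.02). Of the 74 genes 12 were lower (16.2%) and 2 higher, with a median of -0.14, beside 9.33% lower and 9.37% higher of all 4791 named genes under this level. ZNF426 was the lowest of them, at 6.35 in the control and 4.45 after ANO5 siRNA. Among the members, 8 had an ANO5 siRNA value and 2 a control value under 6.05. Of those 8, 5 were lower: ZNF14, ZNF429, ZNF625, ZNF600 and ZNF749, whose place among the members rested on the control array. Whether background limits the differences of these members was not tested. With both arrays required to reach the level, 53 of 136 genes were lower (39.0%) and 4 higher.

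Of 46 listed genes of KRAB corepressors and heterochromatin 40 were measured, and 10 were lower (25%) and 5 higher (12.5%), with a median of -0.04. Of all measured genes 20.1% were lower and 23.2% higher, so the share of lower genes in the list was near that background. TRIM28 was 1.91-fold lower, SETDB1 read 10.30 and 9.99, and its partner ATF7IP 11.89 and 11.85. The heterochromatin proteins differed among themselves, with CBX1 3.61-fold lower (11.99 and 10.14) and CBX3 at 14.90 and 15.08. The lowest of them was UHRF1, which guides maintenance methylation of DNA, at 11.04 and 8.12 (7.57-fold lower). SUV39H1, a histone methyltransferase, was 3.12-fold lower and DNMT1, the maintenance DNA methyltransferase, 2.30-fold. Higher were DNMT3A, which sets new DNA methylation (8.10 and 9.57, 2.77-fold), EHMT1 (2.35-fold), MORC3 (2.10-fold), H3-3B, a gene of the variant histone H3.3 (1.65-fold), and ATRX, a chromatin remodeller (8.99 and 9.61, 1.54-fold). EHMT2 was 1.92-fold lower (10.68 and 9.74) while EHMT1 was higher. DNMT1 and DNMT3A also differed in direction between these 2 arrays.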

How the data were processed

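NUGC4 cells given control siRNA or ANO5 siRNA were each read on 1 expression array. The authors deposited log2 signal, 1 value for every one of 17345 transcript clusters and either array, and that it is log2 is read from its range of 2.13 to 18.15. The tool listed in the submitters' processing notes is Agilent Feature Extraction 12.0.3.1, although the form of the cluster names is not one Agilent arrays use, so how the values were made is in doubt. How probes were summarised and normalized, and on which genome build, are points not given in the sources used here. The number of arrays limits the precision.

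Values were used as deposited, since the 75th percentiles of the named genes differed by 0.02. Symbols came from the platform annotation, and all 14526 named genes matched RefSeq by Entrez identifier. Per gene the cluster with the highest mean was used. With 1 array per group no test was run: counts past 1.5-fold and 2-fold and medians are set beside those of all measured genes. Counting was tested on simulated data. Neighbour groups used the RefSeq gene order only. Named genes were the 20 lowest and 15 highest differences, the 10 highest levels, 4 genes on each side of the level threshold, group extremes and genes of known role. The pattern in capitals was chosen after the promoters were read. Others were named for their place beside these after their values were seen. Classes by protein domain were planned and not analysed here. The members and lists were chosen with earlier results of these data known. Alternatives were 4 scalings, 3 filters, the median over clusters, a pseudocount and other folds. Python 3.11.15, numpy 2.4.6, pandas 2.3.3 and statsmodels 0.14.6 were used.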

Additional observations from a re-analysis of the deposited data

How the results depend on the processing

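The median of the 146 genes stayed between -0.40 and -0.30 under the 4 scalings and the pseudocount. Taking the median over clusters left the counts and medians as they were, so it was no separate check. The members' median was -0.28 over all 220 genes with no filter and -0.35 over the 136 genes at the level on both arrays. It was -0.53 over 70 genes when only those at or above the 50th percentile of level were kept. This, which keeps fewer genes, left 33 lower (47.1%) and 3 higher. The pseudocount of 32 left 48 lower and 3 higher. At 2-fold 31 were lower and 1 higher, and at 3-fold 10 and 0, because the threshold itself changed. Without the ZNF264 to ZNF446 group, an alternative chosen after seeing the data, 36 were lower. The loess fit on mean level gave 62 lower and 4 higher. Among single members, ZNF227, ZNF254, ZNF649, ZNF787 and ZNF813 changed their call at 1.5-fold under loess, and 0 did under the other scalings, of which centring on the median moved no value. No paired analysis was possible because each group is 1 array. Signal over background is unknown, so differences of low genes may be understated.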

Other observations

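Zinc finger genes of chromosome 19 with other name forms were few in the table. Of 12 genes named ZFP, ZSCAN, ZBTB or ZIM in the table, 6 were at or above 6.05. Of these 6, 0 passed 1.5-fold, while 20.1% of all measured genes were lower and 23.2% higher. ZFP36, which encodes an RNA-binding protein of another finger type that destabilises mRNA, read 11.09 in the control and 11.64 after ANO5 siRNA. ZBTB7A, a BTB domain repressor, read 10.24 and 10.51, and ZBTB45 read 8.41 on both arrays. ZSCAN5A read 7.52 and 7.32, and ZFP30, which lies inside the ZNF565 to ZNF573 group, read 6.67 and 6.95.

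Of 162 clusters that the array places on chromosome 19 without a gene name, 96 were at or above 6.05. Of these 17 were lower (17.7%, beside 20.1% of all measured genes) and 14 higher (14.6%, beside 23.2%) by at least 1.5-fold, with a median of -0.06.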
